A study of Mus musculus with 7 samples.

Results

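The lymphocyte homing receptors examined here are 9 genes taken by name, Ccr6, Ccr7, Ccr9, Cxcr4, Cxcr5, S1pr1, Itga4, Itgal and Itgb7, out of the 27179 genes counted in each library. Their rows were found by Entrez gene identifier with no filter on low counts, and all 9 were present. RNA-seq had been carried out on 7 cell lines derived from end stage lymphomas of male Eµ-Myc transgenic mice of the C57BL/6 strain. In this model a Myc transgene under an immunoglobulin enhancer drives lymphoma of the B lineage, and all 7 lines carry it. The wild-type group (n = 3) had intact Smchd1, which encodes a chromatin protein needed for gene silencing, and the Smchd1 null group (n = 4) was, per the labels, homozygous for a gene trap in it. The methods name the mutant allele MD1 and do not mention a gene trap, a difference that could not be settled here. Each sample was 1 line, so a line cannot be told apart from the tumour it came from, and the comparison asked which transcripts differ between lines with and without Smchd1. The labels do not say whether the lines came from separate animals, and p-values then measure only the spread between these samples, which may be technical. The ages of the mice were not given in the sources used here.

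Circulating lymphocytes find their organs through chemokine receptors, which sense tissue chemokines, and through integrins, which hold the cell to the vessel wall or stroma. Cxcr4 binds Cxcl12 and retains precursor B cells in bone marrow, Ccr7 and Cxcr5 guide cells to the T zone and the B cell follicle, and S1pr1 senses sphingosine-1-phosphate and drives exit into blood and lymph. The Itga4 subunit pairs with Itgb1 to bind Vcam1 or with Itgb7 to bind Madcam1 in gut vessels, whereas Itgal pairs with Itgb2 to form LFA-1, which binds Icam1.

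Total counts were 3626853 to 6822924 in wild-type and 6225875 to 7519549 in Smchd1 null samples. In these libraries 3 counts, taken as the smallest level that can be shown, equal 0.399 to 0.827 CPM (counts scaled to the same library total). Wild-type replicate 1 was single-end and the only library of batch 1, while the other 6 were paired-end and formed batch 2. Smchd1 was at 219 to 248 CPM in wild-type and at 22.6 to 28.7 CPM in Smchd1 null samples, a log2 fold change of -3.16 ± 0.11 (SE, FDR 2.18e-05, limma), so the labels held for every line. Wild-type replicates 2 and 3 were far closer to each other (leading log2 distance 1.88) than any other pair within a group (3.97 to 5.94), and were kept as 2 samples because their counts differed by more than counting noise (chi-square of 3.96 per gene). That does not show that they are independent, and whether they came from 1 tumour is not known from the sources used here. Smchd1 null replicate 4 stood apart in its B cell markers. Cd22, an inhibitory co-receptor of B cells, was at 25.4 CPM in it and at 180.0 to 341 CPM in the other 6 lines, and Pax5, the factor that maintains B cell identity, at 16.6 against 51.3 to 84.9 CPM. Cd79b, a signalling chain of the B cell receptor, was at 303 CPM in it, within the 262 to 444 CPM of the others. The 10 precursor B markers summed to 28.2 CPM in that line and to 307 to 365 in the others. Vpreb3, one of the 10, was at 21.0 CPM in Smchd1 null replicate 4 and at no less than 97.6 CPM in the other 6 lines. It was the largest part of the sum in every line except wild-type replicate 1, where Rag1 was higher, at 126 CPM. The other members differed from line to line, with Dntt at 96.0 CPM in Smchd1 null replicate 1. Of the 10, 4 had no count in Smchd1 null replicate 4 and 5 had none in each of Smchd1 null replicates 1 and 3. Ms4a1, the mature B cell antigen CD20, was at most 0.798 CPM in 6 lines and at 12.8 CPM in Smchd1 null replicate 3. The T cell markers Cd3e and Cd8a were at 0 in all 7 lines and, of 12 T cell markers, Cd5 alone passed 2 CPM, at 55.7 CPM in Smchd1 null replicate 4. Lists for dendritic and endothelial cells also summed higher in that line, at 250.1 and 224 CPM against at most 99.1 in any other, through Flt3 (128 CPM), Bst2 (122 CPM) and Pecam1 (219 CPM). In the other 6 lines Flt3 was at most 12.4 CPM, whereas Bst2 was at 54.3 to 90.8 CPM and Pecam1 at 44.1 to 94.2 CPM. Clec9a, Siglech, Kdr and Vwf were at 0 in Smchd1 null replicate 4. The NK, myeloid, stromal and erythroid lists summed to at most 10.2 CPM in every line. What part these differences have in the receptor levels was not tested.

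The promoters of 3 receptors are shown because Cxcr4 was the highest of the receptors, and because Itga4 and Itgb7 moved in opposite directions in 1 line. RefSeq (GRCm38.p6) windows of 300 bases, 250 before to 50 after the start of the gene, were matched for 5 of 9 receptors. Ccr7, Cxcr5, S1pr1 and Itgal had no window in the table used. Capitals mark matches on either strand to TATAAA (the TATA box core), CANNTG (E-box), CACCC (bound by Krüppel-like factors), AGGAAG (ETS core), ATGCAAAT (octamer) or TGTGGT (Runx core).
Cxcr4, chr1:128592250-128592549, minus strand: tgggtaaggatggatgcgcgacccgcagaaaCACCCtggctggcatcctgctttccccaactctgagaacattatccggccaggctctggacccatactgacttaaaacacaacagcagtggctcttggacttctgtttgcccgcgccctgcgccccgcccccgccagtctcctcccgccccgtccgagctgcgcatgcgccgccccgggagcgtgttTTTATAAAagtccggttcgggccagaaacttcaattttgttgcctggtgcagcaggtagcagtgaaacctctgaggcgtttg
Itga4, chr2:79255176-79255475, plus strand: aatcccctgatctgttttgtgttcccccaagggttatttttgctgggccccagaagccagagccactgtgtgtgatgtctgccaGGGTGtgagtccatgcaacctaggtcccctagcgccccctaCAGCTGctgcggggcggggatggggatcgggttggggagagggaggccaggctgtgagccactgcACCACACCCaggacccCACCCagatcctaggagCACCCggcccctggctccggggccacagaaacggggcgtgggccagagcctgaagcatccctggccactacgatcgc
Itgb7, chr15:102231886-102232185, minus strand: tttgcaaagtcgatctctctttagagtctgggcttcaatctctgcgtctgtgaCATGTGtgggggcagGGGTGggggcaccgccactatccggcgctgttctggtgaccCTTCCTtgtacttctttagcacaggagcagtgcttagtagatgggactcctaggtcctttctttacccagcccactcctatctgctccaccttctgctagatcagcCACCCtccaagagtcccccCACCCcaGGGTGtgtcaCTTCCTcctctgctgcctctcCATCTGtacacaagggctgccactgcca
The Cxcr4 window held 20 CpG dinucleotides, more than or equal to 75.2% of the 32851 windows in the table, and 2 overlapping TATAAA matches, one on each strand, a motif that 13.6% of windows hold. The Itga4 window held 10 CpG dinucleotides and no TATAAA. It had 4 CACCC matches, one of which overlaps its single TGTGGT match. The Itgb7 window held 5 CpG dinucleotides, 4 CACCC matches and 2 AGGAAG matches. At least 1 CACCC match is present in 57.5% of windows, AGGAAG in 35.4%, CANNTG in 72.3% and TGTGGT in 16.8%. None of the 3 windows held the octamer, which 1.74% of windows hold, and the only receptor window with it was that at one of the starts of Ccr6.

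Ordered by level per kilobase of gene length (CPM per kilobase, mean ± SD over 7 lines), the receptors ran from Cxcr4 (75.5 ± 31.5) through Ccr7 (41.5 ± 30.1), Itga4 (17.7 ± 8.0), S1pr1 (16.5 ± 8.26), Itgb7 (4.71 ± 11.6), Itgal (0.566 ± 0.823) and Cxcr5 (0.455 ± 0.575) to Ccr6 (0.0377 ± 0.0996) and Ccr9 (0.0354 ± 0.0518). Several steps in this order did not hold in every line. Ccr7 exceeded Cxcr4 in 3 lines and S1pr1 exceeded Itga4 in 3 lines. Itgal exceeded Itgb7 in 3 lines, and Cxcr5 exceeded Itgal in the 3 wild-type lines. The place of Itgb7 rested on Smchd1 null replicate 4, at 31.0 CPM per kilobase, where the other 6 lines had at most 0.825. Per kilobase, Cxcr4 ranked above 92.3% of the 16882 genes detected and Ccr7 above 85.9%. The lymphoma lines thus carried transcripts of 4 receptors, Cxcr4, Ccr7, Itga4 and S1pr1, at over 14 CPM in all 7 lines. The other 5 were below 5 CPM in every line except Smchd1 null replicate 4. In bulk RNA a smaller share of cells with a transcript and less of it per cell cannot be told apart.

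**Figure D1:**
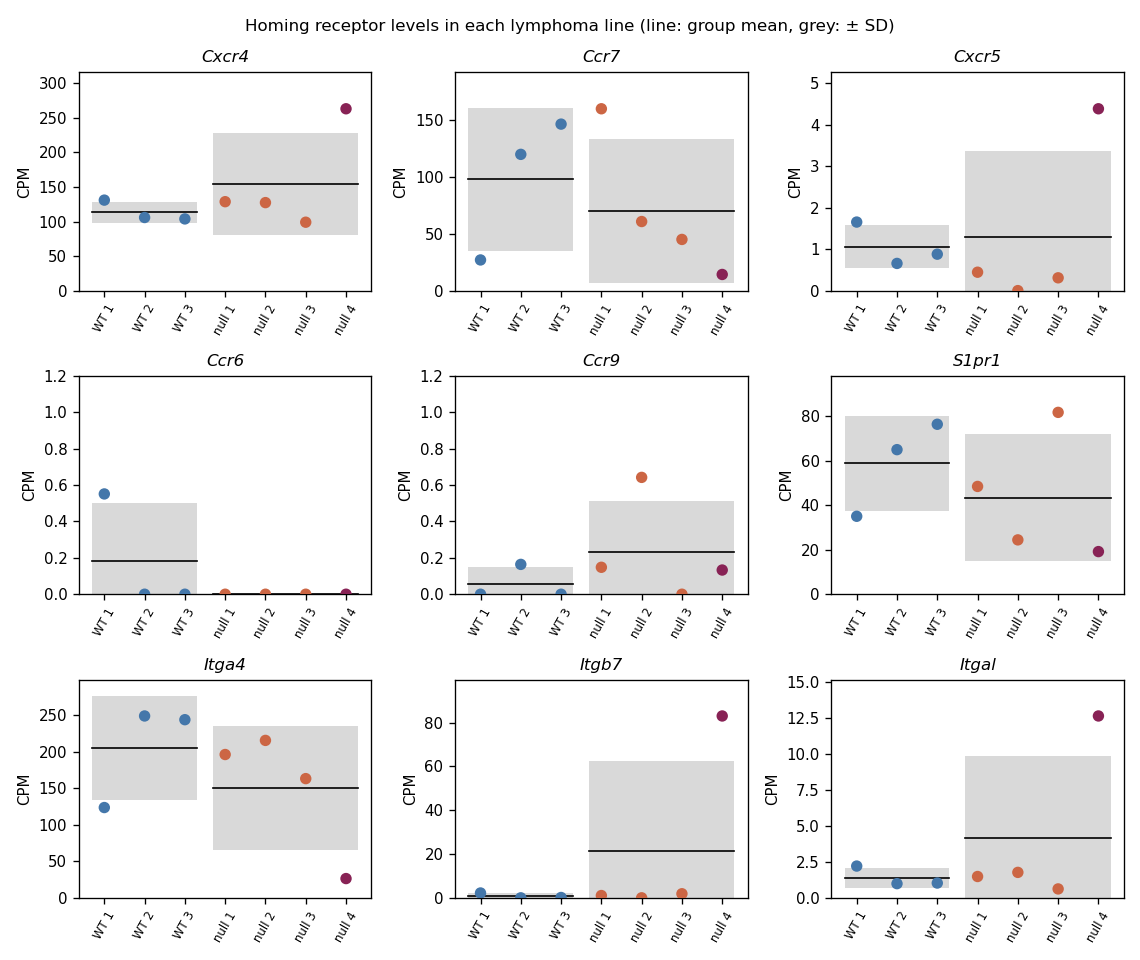
CPM of the 9 receptors in each line, each panel on its own axis from 0; points are lines (WT, wild-type; null, Smchd1 null), horizontal lines are group means and grey bands ± 1 SD, drawn no lower than 0. Smchd1 null replicate 4 is the highest line for Cxcr4, Cxcr5, Itgb7 and Itgal and the lowest for Ccr7, S1pr1 and Itga4.

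Among chemokine receptors, Cxcr4 (chromosome 1, 128588199 to 128592293) was the most evenly expressed. It was at 131, 106 and 104 CPM in wild-type replicates 1 to 3 and at 129, 127, 99.0 and 263 CPM in Smchd1 null replicates 1 to 4. The values of 6 lines lie close together and Smchd1 null replicate 4 lies above them. The group means were 114 ± 15.2 CPM (SD, n = 3) and 155 ± 73.7 CPM (SD, n = 4), and the latter was 118 ± 16.8 CPM without replicate 4. The log2 fold change was 0.26 ± 0.16 (SE, FDR 0.284), with a 95% confidence interval of -0.10 to 0.62.

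Ccr7 (chromosome 11, 99144196 to 99155077), the receptor for Ccl19 and Ccl21, varied most among the abundant receptors. Wild-type replicates 1 to 3 had 27.0, 120.1 and 147 CPM and Smchd1 null replicates 1 to 4 had 160.2, 60.9, 45.1 and 14.2 CPM, an 11.3-fold range. Both groups held low and high lines, and they overlapped over most of that range. The means were 97.9 ± 62.8 and 70.1 ± 63.1 CPM, and the log2 fold change was -0.88 ± 0.49 (SE, FDR 0.251). Per kilobase, the ratio of Ccr7 to Cxcr4 ran from 0.0497 in Smchd1 null replicate 4 and 0.190 in wild-type replicate 1 to 1.30 in wild-type replicate 3. Ccr7 made up 50.9% and 56.4% of the summed level per kilobase of the 5 chemokine receptors in wild-type replicates 2 and 3 and 53.3% in Smchd1 null replicate 1. It made up 4.68% in Smchd1 null replicate 4, where Cxcr4 made up 94.2%.

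The 3 remaining chemokine receptors were at or near the detection limit. Cxcr5 (chromosome 9, 44511787 to 44561877), the receptor for Cxcl13, had 6, 4 and 6 counts in wild-type and 3, 0, 2 and 33 counts in Smchd1 null samples. In CPM these are 1.65, 0.656 and 0.879 against 0.444, 0, 0.309 and 4.39. Smchd1 null replicates 1 to 3 were thus below every wild-type line and replicate 4 was above them, with a 95% counting interval of 3.02 to 6.16 CPM. The log2 fold change was -1.70 ± 0.83 (SE, FDR 0.200) with sample weights and -0.90 (FDR 0.815) with voom alone. It was 0.33 in the quasi-likelihood test of edgeR (FDR 0.948) and 0.30 in DESeq2 (FDR 0.974), and the cause of the change of sign was not tested. By annotation 110 of 3332 exonic bases of Cxcr5 overlap Bcl9l on the other strand, and whether counting used strand was not given in the sources used here.

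Ccr6 (chromosome 17, 8236043 to 8257141), the receptor for Ccl20, had 2 counts in wild-type replicate 1, or 0.551 CPM, and none in the other 6 lines. That value is below the 3 counts taken as detectable, so no fold change is given. Taken as fewer than 3 counts, the zeros allow levels of up to 0.399 to 0.492 CPM. Ccr9 (chromosome 9, 123678439 to 123784330), which binds the gut and thymus chemokine Ccl25, had 0, 1 and 0 counts in wild-type and 1, 4, 0 and 1 counts in Smchd1 null samples. Only Smchd1 null replicate 2 reached 3 counts, at 0.642 CPM. On the log2(CPM + 0.5) scale the Smchd1 null mean was 0.34 higher, with a two-sided exact permutation p of 0.457 where the 35 splits allow no less than 0.0286. With a pseudocount of 0.1 or 1 the difference was 0.89 (exact p 0.371) or 0.20 (exact p 0.543). Ccr9 shares exonic bases with 3 annotated genes, so even these counts are uncertain. Neither gene passed the filter on low values, and both stayed out of the fit across genes.

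S1pr1 (chromosome 3, 115710433 to 115715072), the egress receptor, had 35, 65 and 76.4 CPM in wild-type and 48.4, 24.4, 81.7 and 19.2 CPM in Smchd1 null samples. The lowest and the highest line were both Smchd1 null, and the ranges overlapped. Its group means were 58.8 ± 21.4 and 43.4 ± 28.5 CPM. The log2 fold change of -0.85 ± 0.35 (SE) was the only one among the receptors with an unadjusted p below 0.05 (0.0411), and its FDR was 0.140. Klf2, a transcription factor known to activate S1pr1, was at 24.6 to 34.2 CPM in wild-type and 20.1 to 64.8 CPM in Smchd1 null samples (log2 fold change 0.30, FDR 0.565). Smchd1 null replicate 4 had the highest Klf2 (64.8 CPM) and the lowest S1pr1 of the 7 lines, and Smchd1 null replicate 2 had the lowest Klf2 (20.1 CPM) and the second lowest S1pr1.

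Among the integrin subunits, Itgb7 had the widest spread between lines of any tested receptor, with an SD of 3.50 on the log2 CPM scale beside 1.8 for Cxcr5, the next. Itga4 (chromosome 2, 79255426 to 79333123) was at 124, 249 and 244 CPM in wild-type and at 196, 215, 163 and 26.3 CPM in Smchd1 null samples. All lines but Smchd1 null replicate 4 had more than 120 CPM. The means were 205 ± 70.9 and 150.2 ± 85.4 CPM, the latter 192 ± 26.4 CPM without replicate 4, and the log2 fold change was -0.50 ± 0.35 (SE, FDR 0.365). Cerkl on the other strand overlaps 1124 of 13978 annotated exonic bases of Itga4.

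Itgb7 (chromosome 15, 102215995 to 102231944), the beta-7 subunit, had 8, 0 and 1 counts in wild-type samples and 7, 0, 12 and 624 counts in Smchd1 null samples. In CPM these are 2.21, 0 and 0.147 against 1.04, 0, 1.85 and 83.0. The 95% counting intervals were 76.6 to 89.8 CPM in Smchd1 null replicate 4 and 0.952 to 4.35 CPM in wild-type replicate 1, the next highest line. Leaving out replicate 4 brought the Smchd1 null mean from 21.5 ± 41.0 to 0.963 ± 0.929 CPM, beside 0.784 ± 1.23 CPM in wild-type samples. The log2 fold change was 2.03 ± 1.54 (SE, FDR 0.400), with a 95% confidence interval of -1.49 to 5.55.

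Itgal (chromosome 7, 127296260 to 127335138), the alpha subunit of LFA-1, had 2.21, 0.984 and 1.03 CPM in wild-type and 1.48, 1.77, 0.618 and 12.6 CPM in Smchd1 null samples. These values rest on 4 to 11 counts in 6 lines and on 95 counts in Smchd1 null replicate 4. The log2 fold change was 0.57 ± 0.56 (SE, FDR 0.520), and the Smchd1 null mean was 4.12 ± 5.69 CPM with replicate 4 and 1.29 ± 0.598 CPM without it.

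Set beside their partners per kilobase, the alpha-4 and beta-7 transcripts were unevenly matched in every line. The level of Itgb7 was at most 0.0657 of that of Itga4 in 6 lines and 11.6 times it in Smchd1 null replicate 4. Itgb1, the shared beta-1 subunit, ran from 29.2 to 54.0 CPM per kilobase over the 7 lines, and Itga4 stood at 0.299 to 0.569 of it in 6 lines and at 0.0511 of it in Smchd1 null replicate 4. Itgb2, the partner of Itgal, was at 6.45 to 21.7 CPM per kilobase, and Itgal amounted to 0.00846 to 0.0654 of it in 6 lines and 0.118 of it in Smchd1 null replicate 4. Itgae, the other alpha subunit that pairs with beta-7, was at 0.0962 to 0.362 CPM per kilobase and at 0.145 in that line. Itgb3, which pairs with Itgav, was at 0.0278 to 0.431 CPM per kilobase in 6 lines and at 20.7 in it. These are levels of RNA, and neither assembly of the subunits nor protein was measured.

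**Figure D2:**
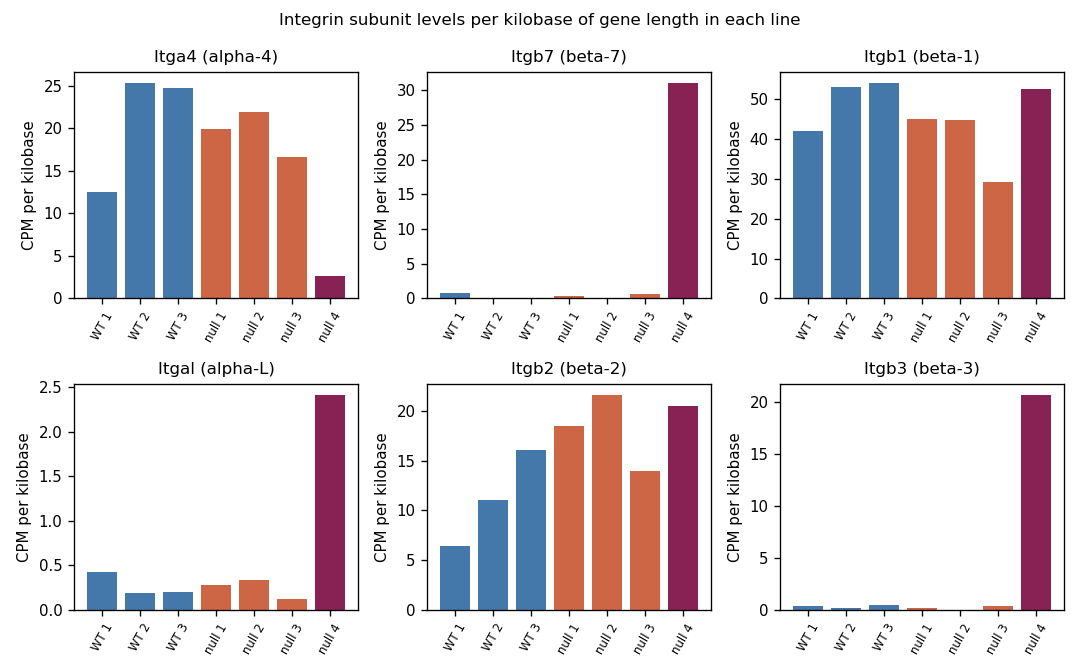
Level per kilobase of gene length (CPM per kilobase) of 6 integrin subunits in each line, as bars from 0 with no replicate error because each line is 1 sample; blue, wild-type; orange, Smchd1 null replicates 1 to 3; purple, Smchd1 null replicate 4. Itgb7 and Itgb3 are high only in Smchd1 null replicate 4, at 31.0 and 20.7, where Itga4 is at 2.68.

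The comparison of genotypes across the receptors gave no call. Of the 7 receptors that passed the filter, 0.5 CPM or higher in no fewer than 3 lines, 0 were called at an FDR under 0.05 by voom with sample weights, which lets more variable samples count less. The weights were 0.246, 3.78 and 3.06 for wild-type replicates 1 to 3 and 1.06, 1.60, 0.831 and 0.249 for Smchd1 null replicates 1 to 4. The wild-type side of each estimate thus rested mostly on replicates 2 and 3. In the same fit 11.9% of the 12303 genes tested were called. At an unadjusted p below 0.05 the count was 1 receptor, S1pr1, in that fit. The share of all genes below that p was not counted. With voom alone, which called 0.0975% of all genes, 0 receptors were called and 0 had an unadjusted p below 0.05. DESeq2, which called 3.29%, gave neither a p nor an FDR for Itgb7, and both counts were 0 among the other 6 receptors. The quasi-likelihood test of edgeR also gave 0 and 0. For none of the 7 did the CPM of the groups fail to overlap, which occurred for 13.2% of the genes tested. The median log2 fold change was -0.50 over the 7 receptors and -0.01 over all genes tested. The 95% confidence intervals reached past 1 on the log2 scale, in one direction or both, for every tested receptor except Cxcr4, so a 2-fold difference lay within them. Smchd1 itself, by contrast, separated the groups completely.

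**Figure D3:**
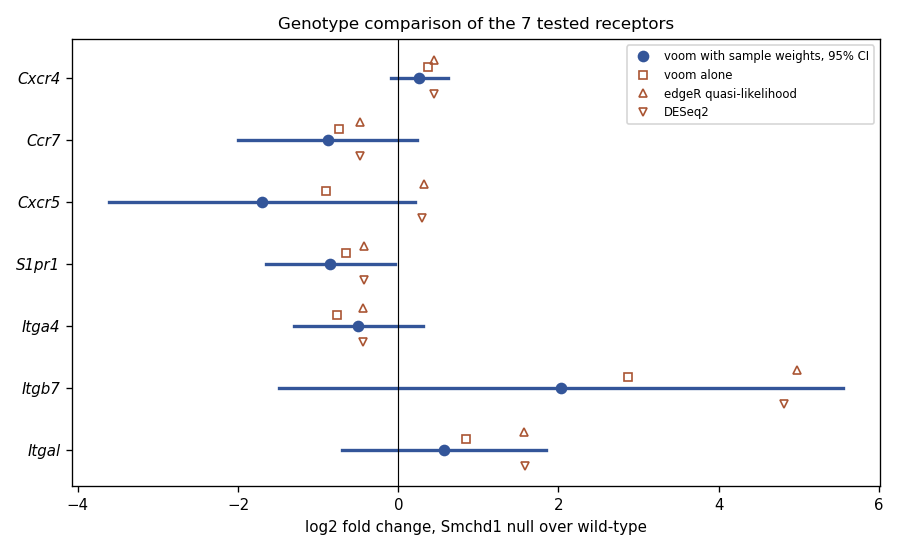
Log2 fold change of Smchd1 null over wild-type samples for the 7 tested receptors; filled circles and bars, voom with sample weights and its 95% confidence interval; open symbols, estimates from voom alone, edgeR and DESeq2. Every interval except that of S1pr1 spans 0, no receptor passed an FDR of 0.05, and the Cxcr5 estimates of edgeR and DESeq2 lie on the other side of 0 from those of voom.

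Leaving out single lines moved these estimates, with the sample weights estimated anew each time. Where a wild-type line was left out, the 2 that remained were, per the paper's account of the method, given equal weight. Without wild-type replicate 1, that is within batch 2, the receptor estimates kept their signs, with S1pr1 at -0.89 (FDR 0.127) and Ccr7 at -0.96 (FDR 0.182). Batch 1 held 1 wild-type sample, so no comparison was possible in it. Without Smchd1 null replicate 4 the estimates for Itga4 and Itgb7 shrank to -0.28 (FDR 0.258) and 1.29 (FDR 0.539). Itga4 moved further, to -0.0053 and -0.021, without wild-type replicate 2 or 3, and its FDR rose to 1.00 and 0.998. Ccr7 turned from -0.88 to 0.01 without wild-type replicate 2 and to 0.18 without wild-type replicate 3. Itgb7 turned from 2.03 to -0.03 without wild-type replicate 2 and rose to 4.36 without Smchd1 null replicate 2. S1pr1 had the smallest FDR of any receptor with a line left out, 0.0632 without Smchd1 null replicate 3 (log2 fold change -1.11). It fell back to -0.28 (FDR 0.665) without Smchd1 null replicate 2, -0.34 (FDR 0.966) without wild-type replicate 3 and -0.48 (FDR 0.972) without wild-type replicate 2. Cxcr5 went from -1.70 to -0.47 without Smchd1 null replicate 2. Itgal ran from 0.14 without wild-type replicate 2 to 0.87 without Smchd1 null replicate 3. Cxcr4 stayed between 0.14 and 0.35 throughout.

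**Figure D4:**
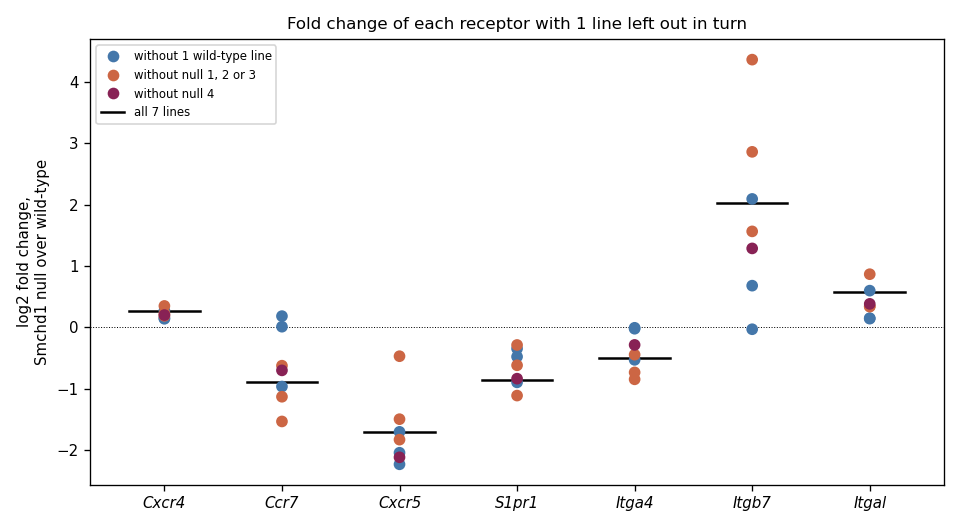
Log2 fold change of the 7 tested receptors from voom with sample weights when each line in turn is left out (points, coloured by the line left out) and with all 7 lines (black bars). Cxcr4 barely moves, whereas Itgb7 runs from -0.03 to 4.36.

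Smchd1 null replicate 4 lay outside the range of the other 6 lines for 7 of 7 tested receptors, 4 above it (Cxcr4, Cxcr5, Itgb7 and Itgal) and 3 below it (Ccr7, S1pr1 and Itga4). The same was true of 43.1% of all genes tested. Wild-type replicate 1 was outside the range of the others for 45.7% of genes tested but for 0 of 7 receptors. Smchd1 null replicate 3 was outermost for 3 receptors and wild-type replicate 2, Smchd1 null replicate 1 and Smchd1 null replicate 2 for 1 each. Smchd1 null replicate 4 and wild-type replicate 1 had the lowest Ccr7 and Itga4 of the 7 lines.

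**Figure D5:**
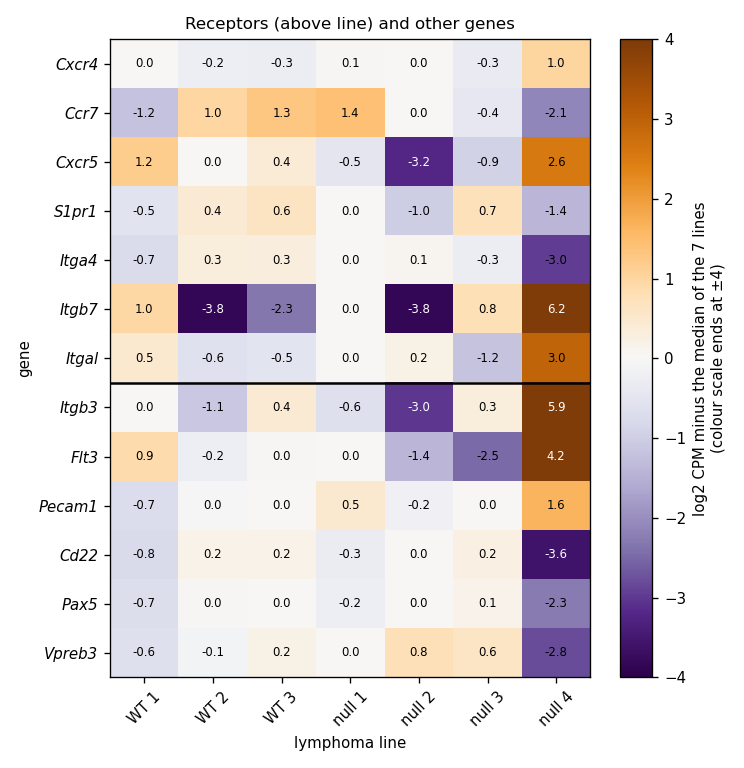
Log2 CPM after normalisation minus the median of the 7 lines, for the 7 tested receptors (above the black line) and for Itgb3, Flt3, Pecam1 and 3 B cell markers (Cd22, Pax5 and Vpreb3), which were chosen after their values were seen; the colour scale ends at ±4. The Smchd1 null replicate 4 column runs from -2.96 for Itga4 to 6.16 for Itgb7 among the receptors and is at -3.57 for Cd22.

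Because Itgb7 was the extreme case, the genes around it were examined. Within 1 Mb of Itgb7 on chromosome 15, 16 of 26 other tested genes were higher in Smchd1 null replicate 4 than in all other lines, as were 22.0% of all genes tested. Their median difference from the median of the other lines was 0.40 on the log2 scale, beside 0.47 for chromosome 15 and -0.02 for all genes. The share of chromosome 15 genes that were highest in Smchd1 null replicate 4 was not counted, so the 16 cannot be called particular to this window. Hoxc4, a homeobox gene in that window, was at 47.5 CPM in the line and at most 5.71 CPM elsewhere, and Smug1, a DNA repair glycosylase gene, at 64.2 and at most 24.8 CPM. Both were named after their values were seen, although Hoxc4 was also among the genes closest to Itgb7 in profile. The copy number of chromosome 15 was not measured.

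Profiles like those of the receptors were sought over the 7 lines by the root mean square (RMS) difference of mean-centred log2 CPM, for the 5 tested receptors whose SD passed 1 on that scale. Closest to Itga4 were 4930523C07Rik (RMS 0.16) and Csrp2 (RMS 0.24), at 8.11 and 9.84 CPM in Smchd1 null replicate 4 and at least 27.6 and 33.1 CPM elsewhere. For Ccr7 they were Itpr2, an endoplasmic reticulum calcium channel (RMS 0.26), and Afdn, an adherens junction scaffold (RMS 0.34). Itpr2 was lowest in wild-type replicate 1, Smchd1 null replicate 3 and Smchd1 null replicate 4, at 16.8, 24.2 and 11.2 CPM, and at 57.0 to 94.4 CPM in the other 4 lines. Itgal was closest to Mpzl1 (RMS 0.35) and to Pik3cg, the phosphoinositide kinase subunit that acts downstream of chemokine receptors (RMS 0.36), which was at 164 CPM in Smchd1 null replicate 4 and at most 22.2 CPM elsewhere. Cxcr5 was closest to Tert (RMS 0.34) and E230001N04Rik (RMS 0.40). No gene came within an RMS of 0.5 of Itgb7, the nearest being S100a11 (0.89) and Hoxc4 (0.93). With 7 lines and 12303 genes such matches are a description.

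Genes that work with the receptors were read in the same fit. Of 77 tested genes on 8 lists of partners, ligands and signalling molecules, 10 were called, 7 higher and 3 lower in Smchd1 null samples, beside the 11.9% of all genes. With wild-type replicate 2 or 3 left out, or with their counts summed, 0 of the 77 and 1 of all genes tested were called. Each of these settings leaves 2 wild-type samples, which, per the paper, are then given equal weight. In the full fit wild-type replicates 1 to 3 had weights of 0.246, 3.78 and 3.06. What part this change of weights had in the fall was not tested. With voom alone and with the quasi-likelihood test of edgeR 0 of the 77 were called, and DESeq2 called 2. In edgeR's test 12 of the 77 had an unadjusted p below 0.05. The share of all genes below that p was not counted. The 12, and such counts for single lists, thus have no background.

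Of 18 other chemokine receptors, 9 had no count in any line and 1 could be tested, Ccrl2, at 0 to 1.91 CPM (FDR 0.173). The highest of those below the filter, named after their values were seen, peaked in Smchd1 null replicate 4. Ackr2, a decoy receptor for inflammatory chemokines, was at 12.2 CPM there (92 counts) and had at most 1 count elsewhere. Ccr10 was at 3.19 CPM and Ackr4 at 3.06 CPM in that line, and both were below 0.9 CPM in the other 6. Among 13 lipid and oxysterol receptors 8 were tested and 1 was called, beside 11.9% of all genes. Lpar2, a lysophosphatidic acid receptor, had 11.0, 6.56 and 6.74 CPM in wild-type samples. In Smchd1 null samples it had 13.5, 23.6, 14.5 and 14.6 CPM (log2 fold change 1.36 ± 0.24, FDR 0.0148). The groups did not overlap for 3 of the 8, Lpar2 among them, beside 13.2% of all genes tested. None of 9 tested genes of S1P metabolism and egress control was called, beside 11.9% of all genes. In the same fit 2 had an unadjusted p below 0.05, in edgeR's test 0, and DESeq2 called 0. The most abundant were Sgpp1, which dephosphorylates sphingosine-1-phosphate, at 45.2 to 169.6 CPM, and Foxo1, a known regulator of Ccr7 and Klf2, at 50.6 to 125 CPM.

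Of 10 tested integrin partner subunits 1 was called, beside 11.9% of all genes. Itgav, the alpha-V subunit, had 94.6, 69.2 and 67.3 CPM in wild-type samples. In Smchd1 null samples it had 42.4, 32.9, 18.4 and 21.4 CPM (log2 fold change -1.19 ± 0.21, FDR 0.0158). It was also called by DESeq2 (FDR 0.00344). The groups did not overlap for 1 of the 10, Itgav, beside 13.2% of all genes tested. Of 13 tested genes of integrin activation 3 were called, all higher, beside 11.9% of all genes. Voom alone, edgeR's test and DESeq2 called 0 of the 13. Rassf5, also known as RAPL, which links Rap1 to LFA-1, was at 1.48 and 0.879 CPM in wild-type replicates 2 and 3 but at 72.5 CPM in wild-type replicate 1 and 69.7 to 98.4 CPM in the Smchd1 null samples. Its log2 fold change of 5.75 ± 0.42 (FDR 0.00111) was therefore set by the former pair of lines. Apbb1ip, the Rap1 effector RIAM, was at 83.1 to 122 CPM in wild-type and 117 to 138 CPM in Smchd1 null samples (log2 fold change 0.55, FDR 0.0190), and Sh2b3, an adaptor, at 24.1 to 32.3 and 26.6 to 56.1 CPM (0.78, FDR 0.0332).

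The selectin and CD44 system had 0 of 10 tested genes called, beside 11.9% of all genes. In the same fit 2 had an unadjusted p below 0.05, in edgeR's test 0, and DESeq2 called 0. Cd24a was at 906 to 1904 CPM. Among the ligands 3 of 12 were tested and 6 had no count in any line. Of the 3, 1 was called, beside 11.9% of all genes. Icam1, which binds LFA-1, was called at 28.1, 6.4 and 6.60 CPM in wild-type and 9.48, 32.1, 28.7 and 21.5 CPM in Smchd1 null samples (log2 fold change 1.66 ± 0.44, FDR 0.0477), though wild-type replicate 1 lay within the Smchd1 null range.

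Of 23 tested genes of receptor signalling and desensitisation 4 were called, beside 11.9% of all genes. Dock2, the Rac exchange factor that chemokine receptors use for migration, had 141, 186 and 196 CPM in wild-type and 247, 266, 251 and 281 CPM in Smchd1 null samples (log2 fold change 0.45 ± 0.09, FDR 0.0243, DESeq2 FDR 0.0185). Rgs19, which quenches Gi signals, was also higher in every Smchd1 null line, at 64.3 to 77.7 against 40.3 to 61.5 CPM (log2 fold change 0.64 ± 0.10, FDR 0.0124). Gnai3, a Gi alpha subunit, was lower in every Smchd1 null line, at 138 to 220.4 against 255 to 315 CPM (log2 fold change -0.68 ± 0.15, FDR 0.0265). The groups did not overlap for 8 of the 23, Dock2, Rgs19 and Gnai3 among them, beside 13.2% of all genes tested. Rgs3 was called lower (log2 fold change -1.59, FDR 0.0440) at 1.93 to 5.04 against 1.93 to 9.23 CPM, ranges that overlapped.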

How the data were processed

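Total RNA from 7 lymphoma lines (3 wild-type, 4 Smchd1 null) was sequenced as TruSeq libraries. Per the labels and the study's methods, the authors made reads with CASAVA (version 1.8.2), aligned them to mm10 with Subread and summarised them with featureCounts. The deposited values are raw counts per gene, keyed by Entrez identifier, with a gene length. Treatment of multi-mapping reads and of strand is not given in the sources used here.

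CPM were computed from total counts, and levels per kilobase by dividing by the deposited gene length. Symbols came from RefSeq (GRCm38.p6) and matched 25275 of 27179 identifiers, which held 98.2% of counts. Gene positions came from GENCODE on GRCm38. The filter kept the 12303 genes that reached 0.5 CPM in no fewer than 3 libraries. Library sizes were recomputed on them and TMM factors applied. The main analysis was voomWithQualityWeights in limma (version 3.58.1, R 4.3.3) with no covariate, with Benjamini-Hochberg FDR over all genes tested. Alternatives were voom alone, block weights, sample removal, relative log expression, other filters, leaving out each replicate, a replicate block, batch as a covariate, edgeR (version 4.0.16) and DESeq2 (version 1.42.0). Code was tested on simulated data. Counting intervals are exact Poisson at 95% and, like the 3-count floor, cover counting error only. Replicate numbers did not pair the samples (correlations of same-numbered deviations -0.15, 0.22 and -0.20).

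The receptors, gene lists and tests were chosen with earlier results of these data known. Named genes are the 9 receptors and Smchd1, the called genes of each list (at most 4, by FDR; otherwise the 2 with the highest mean CPM among those tested) and the 2 nearest profiles of each receptor with an SD over 1. Some genes that these rules would name are not reported here.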

Additional observations from a re-analysis of the deposited data

Results flagged for a closer look

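Itga4 in Smchd1 null samples was picked out because one sample lay far from the others. On the log2(CPM + 0.5) scale the gap between Smchd1 null replicate 4 (26.3 CPM) and the nearest of the other 3 samples (163 to 215 CPM) took up 0.867 of the range of the group, above Dixon's 95% critical value for 4 samples. Of the 8 receptors screened in this way it was the only one past that value, and chance picks out about 1 in 20 groups. The groups of 3 wild-type samples are too small for this screen. The log2 fold change of Itga4 was -0.50 (FDR 0.365) with this sample and -0.28 (FDR 0.258) without it, and it moved further, to -0.0053 and -0.021, without wild-type replicate 2 or 3.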

How the results depend on the processing

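The number of receptors called was 0 under all alternatives run. For single receptors 127 of 132 recomputed fold changes kept their direction and their side of the threshold, and 5 changed sign: Ccr7 without wild-type replicate 2 (0.012) or 3 (0.18), Itgb7 without wild-type replicate 2 (-0.029), and Cxcr5 in the quasi-likelihood test of edgeR (0.33) and in DESeq2 (0.30). The 127 include Itgb7 in DESeq2, which gave it no p or FDR, so only its direction could be compared. With each replicate left out, Ccr7 ran from -1.53 to 0.18 and Itgb7 from -0.029 to 4.36. Sample weights were estimated anew each time, and where 2 wild-type lines remained they were, per the paper, given equal weight. The cause was not tested. The exact p for Ccr9 is limited by the 35 splits.

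The number of genes called, 1466 with sample weights, was 12 with voom alone and in edgeR's test, 493 with block weights, 521 after sample removal, 384 with DESeq2, 1 with wild-type replicates 2 and 3 summed and 2797 at an FDR under 0.1. Leaving out each replicate gave 1 to 1683. The 10 related genes called became 0 with voom alone, in edgeR's test and with replicates 2 and 3 summed, 4 with block weights, 3 after sample removal, 2 with DESeq2 and 22 at an FDR under 0.1, and leaving out each replicate gave 0 to 13.

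With a replicate block, 0 receptors, 222 genes and 2 related genes were called. Same-numbered samples share only a number, and not every sample correlated best with its own number. Smchd1 stayed between -3.02 and -3.23 under every alternative. Depth limits Ccr6, Ccr9, Cxcr5, Itgal and Itgb7, for which most lines had 12 or fewer counts.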

Other observations

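The 11 mature B cell markers, which belong to no receptor comparison, had their highest sum in Smchd1 null replicate 3. It was 1374 CPM against 134 to 344 CPM in the other 6 lines, mainly through Cd74 (960.4 CPM). H2-Aa, H2-Ab1, H2-Eb1 and Ciita were also highest in that line. The other members of the list were not. Cr2 and Fcer2a had no count there, and Cd38 and Tnfrsf13c were higher in Smchd1 null replicates 1 and 2. Il7r, a precursor B marker, was at 79.4 CPM in Smchd1 null replicate 3. That line had the highest S1pr1 (81.7 CPM) and the lowest Cxcr4 (99.0 CPM) and Itgal (0.618 CPM) of the 7. Rag1, a recombinase gene of precursor B cells, was at 126 CPM in wild-type replicate 1 and at most 8.37 CPM elsewhere, and Dntt at 96.0 CPM in Smchd1 null replicate 1 and at most 3.08 CPM elsewhere. The plasma cell list summed to 293 to 475 CPM in wild-type and 345 to 531 CPM in Smchd1 null samples. Most of each sum was Irf4, at 251 to 384 CPM over the 7 lines. Jchain and Tnfrsf17 had at most 2 counts in any line. Prdm1 was at 14.8 CPM in Smchd1 null replicate 4 and at most 2.48 CPM elsewhere.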
